A study of Homo sapiens with 6 samples.

Results

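The genes described here are 48 protein-coding genes whose symbols start with ZNF, read in LX-2 cells from the deposited rows that lie opposite to them. Of 519 protein-coding ZNF rows in the count tables, 86 had non-coding rows whose exons overlapped by at least 50 bp only their exons on the other strand. The counts of those non-coding rows were summed for each gene, and the 48 genes with 100 or more such counts over the 6 libraries were kept. Another 38 stayed under that minimum, 7 of them with no count at all. The genes were thus chosen by their summed level, which is described and not tested. The lowest kept were ZNF589 with 104 counts, ZNF765 with 112 and ZNF497 with 120, and the highest left out were ZNF888 with 95, ZNF100 with 91 and ZNF780A with 86. The whole table read in this way held 2997 protein-coding genes, of which 1627 reached the same minimum.

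LX-2 is an established line of human hepatic stellate cells, the cells that deposit scar matrix in the injured liver, labelled here as wild type. Over 24 h, the cells of 1 group received FEBJ, an extract made from fruits of the plant Brucea javanica. Those of another received cynaroside, a flavone glucoside, over the same 24 h, and the controls the solvent DMSO. Each group held 2 libraries of total RNA. The labels name no dose, and separate cultures for the paired libraries are not recorded, so p-values measure the spread between these libraries, which may be technical.

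ZNF proteins carry zinc fingers, mostly of the C2H2 kind, in which cysteines and histidines hold a zinc ion and neighbouring residues touch the bases of DNA. Many of them also carry a KRAB box, which recruits the corepressor TRIM28 and with it histone methyltransferases, so that the bound sequence, often a transposable element, is silenced. Their genes multiplied by duplication and stand in long clusters, above all on chromosome 19. Some ZNF proteins are known for other work: ZNF598 is a ubiquitin ligase on collided ribosomes, and ZNF473 takes part in the processing of histone mRNA.

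Promoter sequences are shown for the 3 genes with the largest rise after FEBJ, ZNF862, ZNF57 and ZNF90, and for ZNF22, which fell the most. These are promoters of the ZNF genes, while the values come from non-coding rows opposite to them, whose own promoters were not read. The 4 genes were picked after the values were seen. Each promoter runs 5′ to 3′ on the + strand from 250 bases before to 50 bases after the start of the gene, from RefSeq on GRCh38.p14. The stretches are chr7:149838125-149838424 for ZNF862, chr19:2900678-2900977 for ZNF57, chr19:20077750-20078049 for ZNF90 and chr10:45000673-45000972 for ZNF22. Capitals mark CCAAT, the box bound by the factor NF-Y, and the ETS letters CCGGAAGT, each on either strand.
ZNF862: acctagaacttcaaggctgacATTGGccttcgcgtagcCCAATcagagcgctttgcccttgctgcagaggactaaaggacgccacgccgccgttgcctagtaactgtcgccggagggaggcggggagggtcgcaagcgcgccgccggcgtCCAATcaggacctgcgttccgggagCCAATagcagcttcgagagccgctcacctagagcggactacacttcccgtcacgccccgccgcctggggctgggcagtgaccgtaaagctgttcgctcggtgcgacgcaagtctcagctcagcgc
ZNF57: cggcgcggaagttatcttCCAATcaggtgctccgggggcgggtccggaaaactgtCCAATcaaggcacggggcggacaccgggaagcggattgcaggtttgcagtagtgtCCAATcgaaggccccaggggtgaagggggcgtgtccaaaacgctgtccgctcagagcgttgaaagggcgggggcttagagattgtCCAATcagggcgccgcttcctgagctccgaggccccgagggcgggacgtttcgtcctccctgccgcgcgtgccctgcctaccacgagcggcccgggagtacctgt
ZNF90: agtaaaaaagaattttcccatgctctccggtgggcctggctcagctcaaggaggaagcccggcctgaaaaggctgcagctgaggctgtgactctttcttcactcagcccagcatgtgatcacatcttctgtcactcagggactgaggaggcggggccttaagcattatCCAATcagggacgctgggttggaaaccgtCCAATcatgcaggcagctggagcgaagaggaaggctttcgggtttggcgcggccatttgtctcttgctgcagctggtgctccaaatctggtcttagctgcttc
ZNF22: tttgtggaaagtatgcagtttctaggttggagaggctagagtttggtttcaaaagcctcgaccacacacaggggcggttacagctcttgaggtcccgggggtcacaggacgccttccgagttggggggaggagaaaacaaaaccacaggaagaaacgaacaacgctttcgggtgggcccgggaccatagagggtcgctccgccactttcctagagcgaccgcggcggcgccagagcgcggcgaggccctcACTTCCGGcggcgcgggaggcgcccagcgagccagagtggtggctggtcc
CCAAT occurred in 4 copies in the promoter of ZNF862, in 4 in that of ZNF57 and in 2 in that of ZNF90. At least 2 copies were found in 6 of the 42 ZNF genes with an entry (14.3%), beside 12.7% of all 15301 promoters of this length. At least 3 were in 4.76% beside 4.1%, and at least 4 in 4.76% beside 1.3%; the 2 genes with at least 4 are ZNF862 and ZNF57, picked here for their rise. The ETS letters stand at the start of ZNF22, on the other strand.

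A promoter was found for 42 of the 48 genes. ZNF155, ZNF473, ZNF480, ZNF571, ZNF649 and ZNF710 had no entry. CCAAT was present in 15 of the 42 (35.7%), beside 36.6% of all promoters and 49.0% of all 435 ZNF promoters. The ETS letters CCGGAAGT were in 9 of the 42 (21.4%), beside 6.31% of all promoters and 17.2% of all ZNF promoters. Of 19 genes with an entry that rose after FEBJ, 9 held CCAAT and 4 the ETS letters, and of 4 that fell, 1 held each. TATAAA was in 2.38% of the genes, beside 9.59% of all promoters and 2.76% of all ZNF promoters. The NRF1 motif was in 4.76% beside 1.72% of all promoters, and the ZNF143 motif in 2.38% beside 0.935%. The YY1 motif was in none of the 42 beside 2.31%. Among all ZNF promoters the shares were 2.53% for NRF1, 2.99% for ZNF143 and 1.61% for YY1. The median GC content was 64.8%, beside 63.0% for all promoters. These are matches of letters on both strands and not known sites.

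The non-coding rows that stand for the genes were 55 in number, 1 for 41 genes and 2 for the other 7. They are antisense RNAs, long intergenic RNAs, pseudogenes and other non-coding rows. Summed counts per gene over the 6 libraries ran from 104 for ZNF589 to 18360 for ZNF770, and 20 of the 48 genes held at least 100 counts in every group. For 40 genes they were at or above the counts of the gene's own row. The share of such rows' exon length that lies opposite to exons of the gene ranged from 3% for ZNF571 to 100% for 8 genes, with a median of 37.2%. Only exons were compared, so the rest of a row lies opposite to introns or beside the gene, which was not measured. A value can thus come from the non-coding RNA itself. The strand setting of the counting was not stated, and how much of a value is RNA of the ZNF gene was not tested.

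Gene rows held 1599000 to 4709317 counts per library, and the opposite-strand reading 737881 to 2158902, which was 40.3 to 46.2% of them. The 48 genes took 6220 to 21742 counts of a library. Log2 CPM correlated at 0.974 to 0.978 between the libraries of a group over the tested genes, in which CPM is counts per 1000000 of the scaled library size. Of 11 stellate or fibroblast markers, 7 were read from opposite rows, with sums of 129836 and 129234 CPM in DMSO, 61223 and 61146 CPM after FEBJ, and 103980.0 and 104156 CPM after cynaroside. The FEBJ libraries were thus lowest in this sum, and COL1A2 and DES were at 0 in their own rows. The own rows of these markers summed to 2610 and 3762 counts in DMSO, 201 and 277 with FEBJ, and 267 and 631 with cynaroside. The opposite rows of 7 of the 11 held 134866 and 196270 counts in DMSO. Own rows of the 5 hepatocyte markers summed to 2 and 1 counts in DMSO, 31 and 38 with FEBJ, and 0 and 0 with cynaroside, with ALB and TTR at 0. Those of the 5 macrophage markers summed to 11 and 8, then 25 and 43, and 10 and 17 counts, with CD163 at 0. Both sums were highest with FEBJ. Endothelial markers summed to at most 31 counts and lymphocyte markers to at most 1. Of 4 bile duct markers, 1 had an opposite row, KRT7, with 1051 and 1243 counts after FEBJ and 62 to 222 elsewhere; KRT19 and EPCAM were at 0. The part of these shifts in the ZNF values was not tested, and fewer cells of a kind cannot be told apart from less RNA per cell.

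FEBJ was set against DMSO first, to see which of these genes the extract changed. After FEBJ, 24 of the 48 genes rose (50%), 4 fell (8.33%) and 20 did not pass the test (edgeR's quasi-likelihood test, Benjamini-Hochberg adjusted p of 0.05 or less over all 1841 genes tested). Among all genes tested, 32.6% rose and 33.2% fell. The median log2 fold change was 0.84 for the ZNF genes and -0.01 for all genes. It was -0.11 for the 1579 other genes with at least 100 counts. More than 2-fold changes made up 16 of the rises and all 4 falls, beside 367 rises and 382 falls among all 1841 genes tested.

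**Figure D1:**
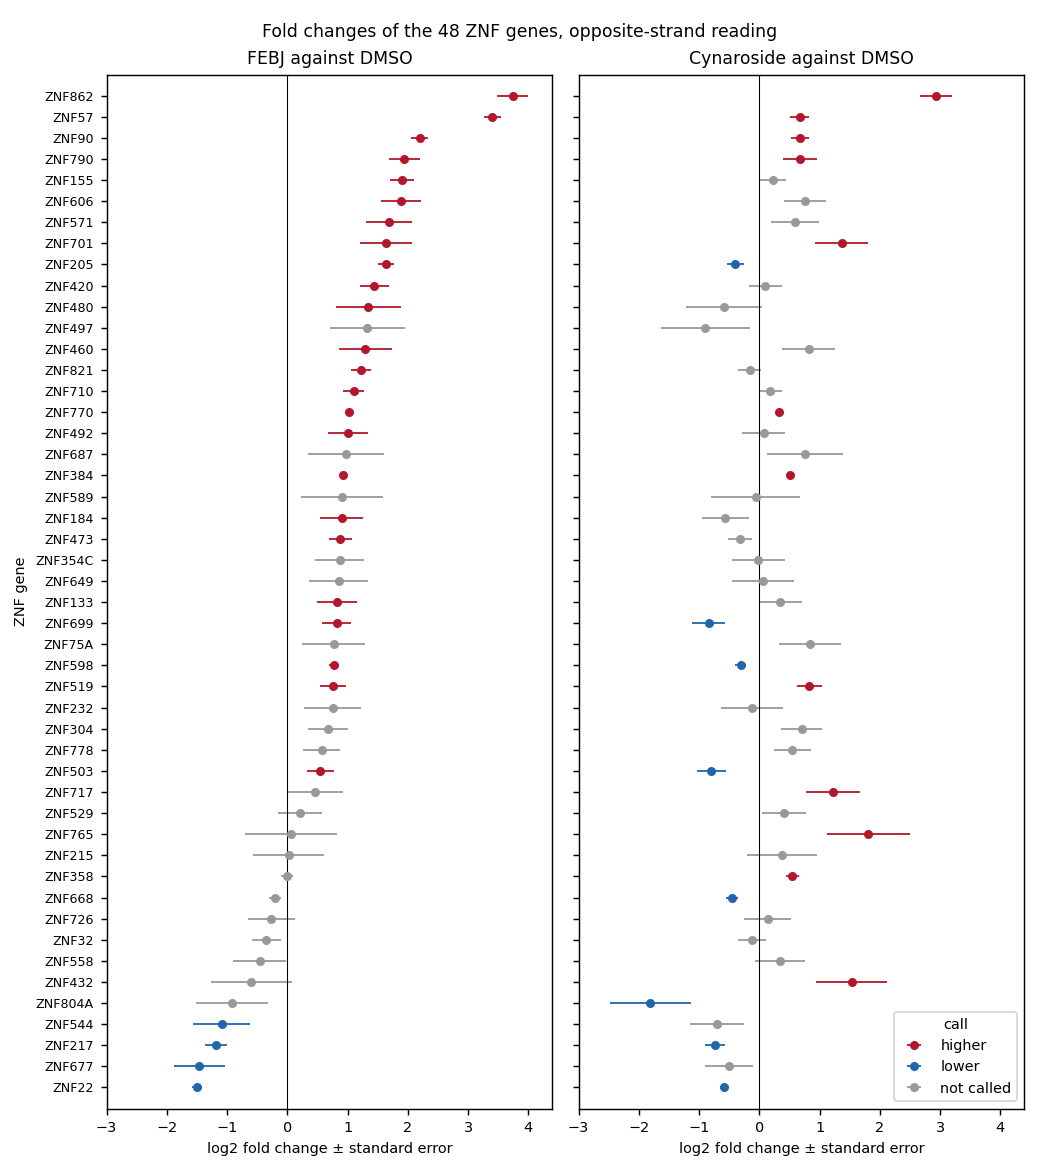
Log2 fold change with standard error (x axes) of each of the 48 ZNF genes (rows, ordered by the FEBJ value) after FEBJ and after cynaroside, each against DMSO, with 2 libraries per group; red is called higher, blue called lower and grey not called. After FEBJ the values run from -1.50 for ZNF22 to 3.74 for ZNF862, and 37 lie above 0, beside 907 of all 1841 genes tested.

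Counts of all 48 genes together came to 8247 and 8227 CPM in the DMSO libraries, 13974 and 13545 after FEBJ, and 8741 and 9152 after cynaroside. ZNF770 and ZNF384 held the most counts. Without both, the sums were 5262 and 5158 CPM in DMSO, 8032 and 7610 with FEBJ, and 4864 and 4996 with cynaroside. Without the 8 genes of most counts, the other 40 summed to 1870 and 1936 CPM in DMSO, 3827 and 3571 with FEBJ, and 2024 and 2240 with cynaroside. Both FEBJ libraries thus lay above the other 4 in each of these sums.

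**Figure D2:**
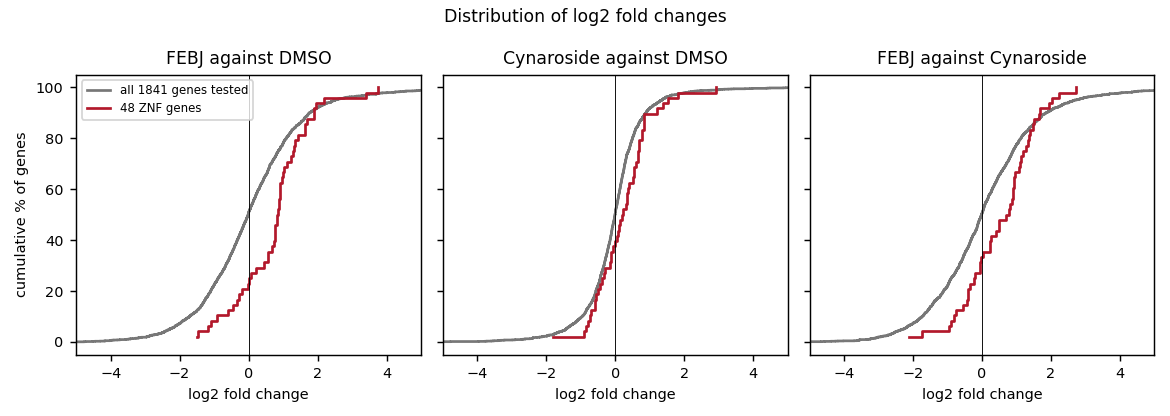
Cumulative percentage of genes (y axis) by log2 fold change (x axis) for the 48 ZNF genes in red and all 1841 genes tested in grey, in the 3 comparisons. The red curve lies to the right of the grey one over most of its course after FEBJ, with medians of 0.84 and -0.01, and less far after cynaroside, with medians of 0.21 and -0.01.

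Largest of the rises was that of ZNF862, a little-studied zinc finger gene on chromosome 7. It was read at 16.4 and 17.1 CPM in DMSO, at 219 and 231 CPM after FEBJ, and at 107 and 144 CPM after cynaroside. No library of a treated group came near the DMSO pair, and the FEBJ pair lay above the cynaroside pair. Its level rose 13.3-fold after FEBJ (log2 fold change 3.74 ± 0.26 SE, adjusted p = 1.3e-41) and by a log2 fold change of 2.93 ± 0.27 after cynaroside (adjusted p = 1.73e-24). The row read for it lies 54.1% opposite to the gene and is an antisense RNA. Its own row moved too, from 5 and 17 counts in DMSO to 50 and 61 after FEBJ and 26 and 51 after cynaroside, with log2 fold changes of 2.58 (adjusted p = 0.000156) and 2.27 (adjusted p = 0.00111).

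ZNF57 followed, a gene on chromosome 19. Its levels were 70.3 and 94.2 CPM in DMSO, 867 and 906 CPM after FEBJ, and 146 and 126 CPM after cynaroside. The 3 groups did not overlap, and the FEBJ libraries stood far above the rest. ZNF57 rose 10.6-fold after FEBJ (log2 fold change 3.40 ± 0.14, adjusted p = 1.1e-94) and by 0.67 ± 0.16 on the log2 scale after cynaroside (adjusted p = 0.000218). The own row of ZNF57 also rose, by a log2 fold change of 1.33 after FEBJ (adjusted p = 0.00333) and 1.06 after cynaroside (adjusted p = 0.022).

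ZNF90 belongs to a cluster of closely alike genes on chromosome 19, so reads may be split between copies. It was read at 109 and 131 CPM in DMSO, 578 and 536 CPM after FEBJ, and 184 and 201 CPM after cynaroside, again without overlap between groups. Its log2 fold change was 2.20 ± 0.14 after FEBJ (adjusted p = 5.78e-45) and 0.68 ± 0.15 after cynaroside (adjusted p = 7.2e-05). Nearly all of its counts, 2379, came from 1 antisense row that lies 11% opposite to the gene and shares exon bases with another gene on its own strand.

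A further 5 genes on the list of the largest FEBJ rises were ZNF790, ZNF155, ZNF606, ZNF571 and ZNF205. ZNF790 went from 42.4 and 34.9 CPM in DMSO to 126 and 167 CPM after FEBJ, a log2 fold change of 1.94 ± 0.26 (adjusted p = 5.2e-13). ZNF155 went from 76.1 and 65.8 CPM to 258 and 269 CPM, a log2 fold change of 1.90 ± 0.20 (adjusted p = 4.77e-20). Both FEBJ libraries lay above both DMSO libraries in each. ZNF606, at 21.2 and 27.0 CPM in DMSO, reached 106 and 76.6 CPM (log2 fold change 1.89 ± 0.33), and ZNF571, at 18.3 and 22.4 CPM, reached 71.6 and 61.7 CPM (log2 fold change 1.69 ± 0.38). Neither gene overlapped between FEBJ and DMSO. The rows behind some of these values carry the name of another gene or lie mostly outside the gene's exons. That of ZNF155 is ZNF230-DT, 49.2% opposite, while those of ZNF790, ZNF571 and ZNF606 are 3.98, 3 and 8.99% opposite. The row of ZNF571 also shares exon bases with another gene on its own strand.

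The deepest reads behind any of the genes were those of ZNF770 and ZNF384. ZNF384, also named CIZ or NMP4, is a factor that binds promoters of matrix and matrix protease genes. Its levels were 1420 and 1476 CPM in DMSO, 2724 and 2760 CPM after FEBJ, and 1969 and 2141 CPM after cynaroside, and each group kept to its own range. ZNF384 rose by a log2 fold change of 0.92 ± 0.05 after FEBJ (adjusted p = 8.15e-55) and 0.51 ± 0.05 after cynaroside (adjusted p = 1.62e-18). Its own row, at 29 and 45 counts in DMSO and 30 and 39 after FEBJ, gave 0.11 ± 0.51 (adjusted p = 0.869). ZNF770 was read from a row that lies wholly opposite to it, at 1565 and 1593 CPM in DMSO, 3218 and 3175 CPM after FEBJ, and 1908 and 2016 CPM after cynaroside. Its log2 fold change was 1.02 ± 0.05 after FEBJ (adjusted p = 5.27e-68) and 0.32 ± 0.05 after cynaroside (adjusted p = 3.21e-08).

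**Figure D3:**
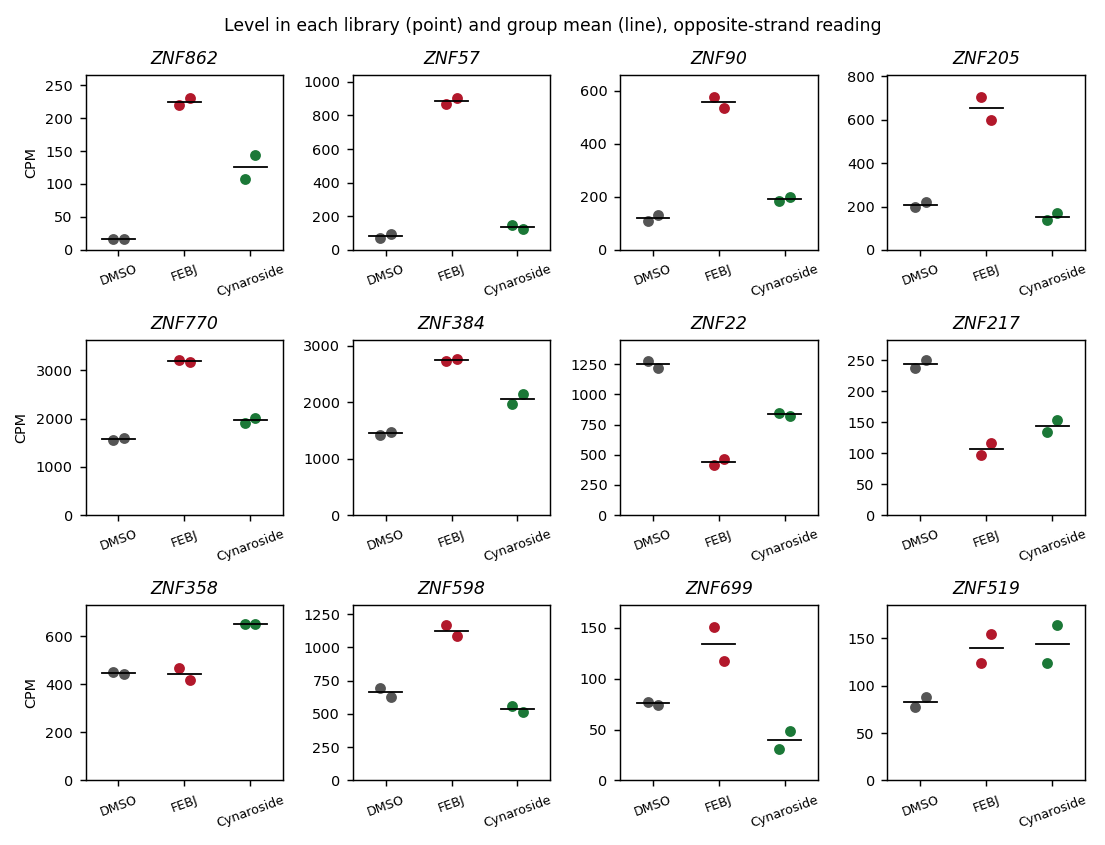
Level in CPM (y axes, from 0) of 12 ZNF genes in each of the 6 libraries; points are libraries and lines are group means of 2 libraries. In ZNF862, ZNF57, ZNF90, ZNF770 and ZNF384 the FEBJ libraries are highest and the DMSO libraries lowest, while in ZNF22 and ZNF217 that order is turned round.

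Several more genes rose after FEBJ. ZNF598, the ubiquitin ligase of collided ribosomes, was read at 694 and 629 CPM in DMSO and 1166 and 1087 CPM after FEBJ (log2 fold change 0.77 ± 0.08, adjusted p = 7.38e-19). ZNF473, of histone mRNA processing, went from 120 and 110 CPM to 226 and 199 CPM (log2 fold change 0.88 ± 0.19, adjusted p = 7.62e-06). In both genes the FEBJ libraries lay above the DMSO libraries. ZNF420, also known as APAK, a KRAB protein that binds p53, rose from 55.8 and 51.4 CPM to 167 and 124 CPM (log2 fold change 1.44 ± 0.24, adjusted p = 2.01e-08). ZNF821 rose by a log2 fold change of 1.22 ± 0.17 and ZNF710 by 1.1 ± 0.18. The remaining called rises were those of ZNF701 (1.64), ZNF480 (1.34), ZNF460 (1.29), ZNF492 (1.01), ZNF184 (0.90), ZNF133 (0.83), ZNF699 (0.82), ZNF519 (0.76) and ZNF503 (0.55), all as log2 fold changes. In ZNF133 the groups overlapped, at 48.1 and 25 CPM in DMSO and 48.1 and 77.9 CPM after FEBJ.

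The 4 genes that fell after FEBJ were ZNF22, ZNF677, ZNF217 and ZNF544. ZNF22, known as KROX-26 and described in the growing tooth, was read at 1276 and 1218 CPM in DMSO, 418 and 462 CPM after FEBJ, and 845 and 823 CPM after cynaroside. DMSO was highest and FEBJ lowest, without overlap. The log2 fold change was -1.50 ± 0.08 after FEBJ (adjusted p = 3.19e-59) and -0.58 ± 0.08 after cynaroside (adjusted p = 7.78e-12). Nearly all of its counts, 6684, came from the pseudogene row CEP164P1, which shares exon bases with another gene on its own strand, so this value is uncertain.

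ZNF217, an oncogene amplified in breast cancer whose product works with the CoREST repressor complex, was the only gene kept from a panel of 16 widely studied ZNF genes. It was read at 237 and 250 CPM in DMSO, 97.0 and 116 CPM after FEBJ, and 135 and 153 CPM after cynaroside. All counts of ZNF217 in this reading came from 1 antisense row that lies 5.48% opposite to the gene. All treated libraries lay under the DMSO pair. Its log2 fold change was -1.18 ± 0.18 after FEBJ (adjusted p = 2.08e-10) and -0.74 ± 0.17 after cynaroside (adjusted p = 0.000153). The own row of ZNF217 was thin, with 19 and 17 counts in DMSO, 1 and 0 with FEBJ, and 0 and 4 with cynaroside, and it was called lower after FEBJ (adjusted p = 0.0106). ZNF677 went from 61.6 and 38.2 CPM in DMSO to 22.7 and 13.7 CPM after FEBJ (log2 fold change -1.46 ± 0.42, adjusted p = 0.00108). ZNF544 went from 35.6 and 40.8 CPM to 14.9 and 20.6 CPM (log2 fold change -1.09 ± 0.47, adjusted p = 0.0291). Neither overlapped between the groups. The row read for ZNF544 is ZNF8-DT, which carries the name of another gene and lies 15.3% opposite to ZNF544. Without DMSO library 1, the adjusted p of ZNF677 was 0.0645 and that of ZNF544 was 0.0531, so 2 falls were left in place of 4. ZNF544 was also lost without DMSO library 2 (adjusted p = 0.173), without FEBJ library 1 (0.139), with DESeq2 (0.117) and with library sizes and scaling taken from all gene rows (log2 fold change -0.79, adjusted p = 0.132).

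Some rises after FEBJ also missed the threshold when 1 library was left out, which leaves 1 library in its group and lowers the power of the test. The log2 fold change of ZNF480 was then 1.04 without DMSO library 1 and 1.16 without FEBJ library 1. ZNF503 had an adjusted p of 0.244 without DMSO library 1 and 0.163 without FEBJ library 1, and ZNF699 one of 0.0585 without FEBJ library 1. ZNF480 had 0.179 without DMSO library 1, 0.157 without FEBJ library 1 and 0.0597 without FEBJ library 2, and ZNF184 had 0.178 without DMSO library 1 and 0.323 without FEBJ library 2. ZNF460 had 0.196 without DMSO library 2 and 0.151 without FEBJ library 1, and ZNF133 had 0.343 without DMSO library 2 and 0.421 without FEBJ library 2. With DESeq2 the adjusted p was 0.062 for ZNF480, 0.0543 for ZNF184 and 0.0852 for ZNF133. The rises of ZNF862, ZNF57, ZNF90, ZNF790, ZNF155, ZNF606, ZNF571, ZNF205, ZNF701, ZNF519, ZNF598, ZNF770 and ZNF384 after FEBJ passed the test under each alternative that was run for them.

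The comparison of cynaroside with DMSO asked the same of that compound. Of the 48 genes, 12 rose (25%), 8 fell (16.7%) and 28 did not pass the test, beside 18.0% higher and 19.3% lower among all genes tested. The median log2 fold change was 0.21 for the ZNF genes and -0.01 for all genes. More than 2-fold changes were 5 of the rises and 1 of the falls, beside 98 rises and 116 falls among all 1841 genes tested. With library sizes and scaling factors from all gene rows instead of the opposite-strand table, 22 ZNF genes rose and 0 fell (edgeR's quasi-likelihood test; 1 lower at an unadjusted p under 0.05). DESeq2 called 8 higher and 6 lower with its own size factors. The scaling from all gene rows moved the median of all genes itself to 0.45, and the ZNF median stood 0.22 above it; after FEBJ these values were 0.29 and 0.86.

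Besides ZNF862, ZNF57, ZNF90, ZNF790, ZNF384 and ZNF770, the genes that rose after cynaroside were ZNF765, ZNF432, ZNF701, ZNF717, ZNF519 and ZNF358. ZNF358 was read from a row wholly opposite to it, at 451 and 442 CPM in DMSO, 653 and 652 CPM after cynaroside, and 468 and 418 CPM after FEBJ. The cynaroside pair stood above all other libraries, while the FEBJ pair spanned the DMSO pair. Its log2 fold change was 0.55 ± 0.10 after cynaroside (adjusted p = 1.23e-06) and -0.01 ± 0.10 after FEBJ (adjusted p = 0.914). With the scaling from all gene rows the FEBJ value was 0.29. The own row of ZNF358 held 10 and 24 counts in DMSO, 0 and 2 with FEBJ, and 2 and 0 with cynaroside.

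ZNF519 was read at 77.0 and 87.6 CPM in DMSO, 124 and 155 CPM after FEBJ, and 124 and 164 CPM after cynaroside. Its log2 fold change was 0.76 ± 0.21 after FEBJ (adjusted p = 0.000562) and 0.83 ± 0.21 after cynaroside (adjusted p = 0.000378). FEBJ and cynaroside differed by -0.07 ± 0.20 on the log2 scale (adjusted p = 0.763). ZNF701 went from 15.4 and 14.5 CPM in DMSO to 53.3 and 40.5 CPM after FEBJ and 30.9 and 43.9 CPM after cynaroside, with log2 fold changes of 1.64 ± 0.43 and 1.37 ± 0.44. Both treated groups lay above DMSO in these 2 genes.

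In ZNF432, ZNF765 and ZNF717, all with few counts, the cynaroside libraries were the highest. ZNF432 and ZNF765 reached the minimum of 100 counts only with those libraries, so the minimum favoured a rise there. ZNF432 was read at 5.78 and 15.8 CPM in DMSO, 8.74 and 6.23 CPM after FEBJ, and 33.7 and 31.8 CPM after cynaroside (log2 fold change of cynaroside against DMSO 1.53 ± 0.59, adjusted p = 0.0283). ZNF765 was read from a pseudogene row, at 7.70 and 7.24 CPM in DMSO, 14.0 and 2.49 CPM after FEBJ, and 26.7 and 26.1 CPM after cynaroside (1.81 ± 0.69, adjusted p = 0.0263). ZNF717 had 11.6 and 25 CPM in DMSO, 34.1 and 18.7 CPM after FEBJ, and 45.0 and 43.4 CPM after cynaroside (1.22 ± 0.45, adjusted p = 0.02). The groups of cynaroside and DMSO did not overlap in any of the 3. ZNF432, ZNF765 and ZNF717 have close copies elsewhere in the genome, so their counts may be shared. Each of the 3 calls was lost when 1 library was left out. For ZNF432 the adjusted p was 0.292, 0.0823 and 0.152 without DMSO library 1, cynaroside library 1 and cynaroside library 2, and for ZNF717 it was 0.243, 0.0564 and 0.0828. For ZNF765 it was 0.102 without DMSO library 1, 0.146 without DMSO library 2, 0.085 without cynaroside library 1 and 0.155 without cynaroside library 2. With DESeq2 the adjusted p was 0.0746 for ZNF432, 0.0819 for ZNF765 and 0.0732 for ZNF717. With cynaroside library 2 left out, 7 ZNF genes rose instead of 12; ZNF701 (adjusted p = 0.152, and 0.0528 without DMSO library 2) and ZNF519 (adjusted p = 0.0983) were among those lost. ZNF790, at 77.3 and 50.7 CPM after cynaroside, rose by a log2 fold change of 0.67 ± 0.28 (adjusted p = 0.0453), which became 0.42 (adjusted p = 0.338) without cynaroside library 1. Its adjusted p was 0.0596 without DMSO library 1, 0.279 without DMSO library 2 and 0.057 without FEBJ library 2, and 0.126 with DESeq2.

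The 8 genes lower after cynaroside were ZNF22 and ZNF217 and ZNF804A, ZNF699, ZNF503, ZNF668, ZNF205 and ZNF598. ZNF668, a candidate tumour suppressor, was read at 705 and 618 CPM in DMSO, 579 and 566 CPM after FEBJ, and 496 and 474 CPM after cynaroside. The cynaroside pair was lowest. Its log2 fold change was -0.45 ± 0.10 after cynaroside (adjusted p = 4.42e-05) and -0.20 ± 0.10 after FEBJ (adjusted p = 0.0522). ZNF804A, a gene known from schizophrenia genetics, went from 30.8 and 23.7 CPM in DMSO to 12.6 and 4.83 CPM after cynaroside (-1.81 ± 0.67, adjusted p = 0.0201), and the adjusted p was 0.152 without DMSO library 1, 0.066 without DMSO library 2, 0.305 without cynaroside library 2 and 0.0589 with DESeq2. ZNF804A reached the minimum number of counts only with its DMSO libraries, so the minimum favoured a fall there. With the scaling from all gene rows, the log2 fold changes after cynaroside of ZNF668, ZNF598 and ZNF205 turned to 0.02, 0.15 and 0.06. The direction of these 3 thus depends on the scaling.

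In 4 genes the call was higher after FEBJ and lower after cynaroside: ZNF205, ZNF699, ZNF503 and ZNF598. These 4 were picked after their values were seen, and with the scaling from all gene rows none of them was called lower after cynaroside. ZNF205 was read at 196 and 220 CPM in DMSO, 707 and 600 CPM after FEBJ, and 139 and 169 CPM after cynaroside. FEBJ stood above and cynaroside under the DMSO pair. The log2 fold change was 1.64 ± 0.13 after FEBJ (adjusted p = 5.15e-33), -0.40 ± 0.14 after cynaroside (adjusted p = 0.0163) and 2.04 ± 0.13 for FEBJ against cynaroside (adjusted p = 4.91e-45). The cynaroside call was lost without DMSO library 2 (adjusted p = 0.183) or without cynaroside library 1 (adjusted p = 0.16), and with DESeq2 (adjusted p = 0.0627). The row read for ZNF205 is ZNF213-AS1, which lies 7.76% opposite to it. The own row of ZNF205 went another way after cynaroside, with 19 and 9 counts in DMSO, 58 and 65 with FEBJ, and 67 and 246 with cynaroside, and log2 fold changes of 2.30 (adjusted p = 4.1e-05) and 3.70 (adjusted p = 1.85e-08).

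ZNF699 was read at 77.0 and 74.4 CPM in DMSO, 151 and 118 CPM after FEBJ, and 30.9 and 48.7 CPM after cynaroside, with a log2 difference of 1.66 ± 0.25 between the treatments (adjusted p = 4.11e-10). ZNF503, a developmental repressor of the NET family, was read at 83.8 and 111 CPM in DMSO, 156 and 133 CPM after FEBJ, and 64.6 and 51.2 CPM after cynaroside, a difference of 1.36 ± 0.23 between treatments (adjusted p = 3.42e-08). ZNF598 stood at 561 and 512 CPM after cynaroside, with a log2 fold change of -0.31 ± 0.09 against DMSO (adjusted p = 0.00188) and of 1.08 ± 0.08 for FEBJ against cynaroside (adjusted p = 1.36e-32). In all 3 genes DMSO lay between the treatments. Against DMSO alone, several of the cynaroside falls missed the threshold when 1 library was left out. The log2 fold change was then -0.62 for ZNF699 without cynaroside library 1 and -0.58 for ZNF503 without DMSO library 2. Without cynaroside library 2 it was -0.60 for ZNF503 and -0.23 for ZNF598, and without DMSO library 1 it was -0.24 for ZNF598. Without DMSO library 2, 5 falls after cynaroside were left in place of 8.

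FEBJ and cynaroside were then set against each other, which uses the same 4 treated libraries. After FEBJ, 23 of the 48 genes were higher than after cynaroside (47.9%), 6 were lower (12.5%) and 19 did not pass the test. Among all genes tested 32.1% were higher and 33.8% lower. The median log2 difference was 0.74 for the ZNF genes and -0.01 for all genes. ZNF57 had the largest difference in favour of FEBJ, 2.73 ± 0.13 on the log2 scale (adjusted p = 1.14e-73). ZNF497 differed by 2.22 ± 0.69 (adjusted p = 0.00234), with 27.1 and 28.7 CPM after FEBJ and 7.03 and 5.31 CPM after cynaroside. ZNF480 differed by 1.93 ± 0.59 (adjusted p = 0.00206), but by 0.95 (adjusted p = 0.199) without cynaroside library 2. ZNF497 and ZNF480 reached the minimum of 100 counts only with their FEBJ libraries, and ZNF432 and ZNF765 only with their cynaroside libraries. The minimum thus favoured differences in these genes. The 6 genes lower after FEBJ were ZNF432 (-2.13 ± 0.62), ZNF765 (-1.75 ± 0.69), ZNF677 (-0.96 ± 0.43), ZNF22 (-0.91 ± 0.08), ZNF358 (-0.56 ± 0.10) and ZNF217 (-0.44 ± 0.19), as log2 differences. Of these, 3 were left without cynaroside library 2: the adjusted p was then 0.108 for ZNF765, 0.0578 for ZNF677 and 0.211 for ZNF217. ZNF677 also missed the threshold without DMSO library 1 (0.0532), DMSO library 2 (0.0545), FEBJ library 2 (0.289) or cynaroside library 1 (0.0942). So did ZNF217 without DMSO library 2 (0.0561) or FEBJ library 1 (0.174), and ZNF765 without FEBJ library 2 (0.326) or cynaroside library 1 (0.0561), all as adjusted p. With DESeq2 it was 0.116 for ZNF677, 0.135 for ZNF217 and 0.066 for ZNF765.

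Chromosome 19 carried 24 of the 48 genes, and the other 24 were spread over other chromosomes, 15 in all with chromosome 19. After FEBJ, 13 of the 24 on chromosome 19 rose and 2 fell, with a median log2 fold change of 0.95. Elsewhere 11 rose and 2 fell, with a median of 0.77. The 106 genes of chromosome 19 that are not ZNF genes and held at least 100 counts gave 43 rises and 40 falls, with a median of 0.16. After cynaroside, 7 genes on chromosome 19 rose and 1 fell (median 0.37), and elsewhere 5 rose and 7 fell (median -0.04). The 106 other genes of chromosome 19 gave 21 rises and 20 falls after cynaroside, with a median of -0.06. Whether chromosome 19 and the rest differ was not tested.

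**Figure D4:**
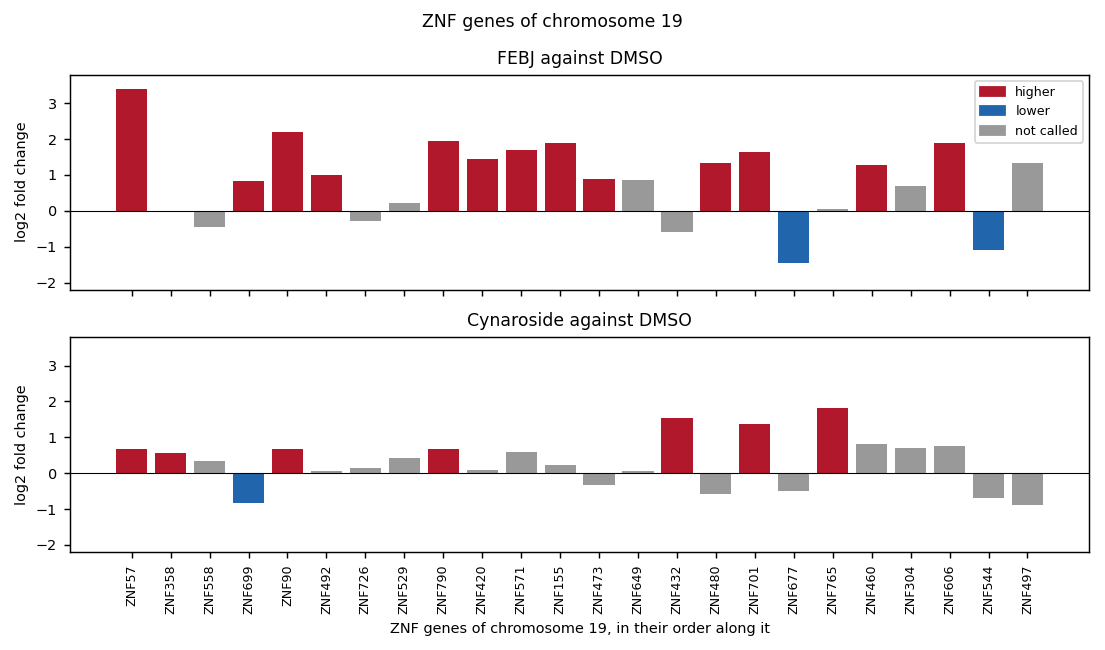
Log2 fold change (y axes) of the 24 ZNF genes of chromosome 19, in their order along it (x axis), after FEBJ (upper) and after cynaroside (lower) against DMSO; red is called higher, blue called lower and grey not called. From ZNF790 to ZNF473, 5 neighbours in this order are called higher after FEBJ, while from ZNF432 to ZNF765 calls in both directions are seen after FEBJ and higher calls after cynaroside.

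Along chromosome 19 the order ZNF790, ZNF420, ZNF571, ZNF155 and ZNF473 gave log2 fold changes after FEBJ of 1.94, 1.44, 1.69, 1.90 and 0.88, all called. ZNF529 before them, at 0.21, and ZNF649 after them, at 0.85, were not called. The stretches described here were set with the calls in view. In the stretch that follows ZNF649, ZNF432 stood at -0.60, ZNF480 at 1.34, ZNF701 at 1.64, ZNF677 at -1.46 and ZNF765 at 0.06 after FEBJ. After cynaroside the same genes stood at 1.53, -0.59, 1.37, -0.50 and 1.81, on the log2 scale. Called in this stretch were ZNF480 and ZNF701 as higher and ZNF677 as lower after FEBJ, and ZNF432, ZNF701 and ZNF765 as higher after cynaroside, where none was called lower.

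How far a row lies opposite to its gene was set beside the values. For 18 genes at least 50% of the counts came from rows at least 50% opposite to the gene, and 8 of these rose and 1 fell after FEBJ, with a median log2 fold change of 0.84. For the other 30, 16 rose and 3 fell, with a median of 0.85. After cynaroside the 18 gave 8 rises and 1 fall (median 0.53), and the 30 gave 4 rises and 7 falls (median 0.09). For FEBJ against cynaroside the 18 gave 6 higher and 4 lower (median 0.34), and the 30 gave 17 and 2 (median 0.93). Calls were also more frequent in deeper genes. Of 16 genes with at least 1000 counts, 12 rose and 2 fell after FEBJ (median 0.97). Of 19 with under 300 counts, 3 rose and 2 fell (median 0.75). The same split was not made over all genes tested, so this need not be particular to ZNF genes.

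Genes not called after FEBJ or cynaroside were mostly thin. ZNF32 was read at 91.5 and 107 CPM in DMSO, 87.4 and 70.4 CPM after FEBJ, and 88.5 and 94.6 CPM after cynaroside, and was not called in any comparison. ZNF778, ZNF304, ZNF529, ZNF726, ZNF558, ZNF232, ZNF649, ZNF75A, ZNF215, ZNF687 and ZNF589 were likewise called in none of the 3. Their log2 fold changes after FEBJ ran from -0.46 for ZNF558 to 0.98 for ZNF687. In ZNF687, a gene linked to Paget disease of bone, libraries of a group lay far apart, at 7.86 and 29.3 CPM after FEBJ and 1.41 and 26.5 CPM after cynaroside. ZNF354C was called only between the treatments, 0.89 ± 0.41 higher on the log2 scale after FEBJ than after cynaroside (adjusted p = 0.0472). That call was lost without DMSO library 1 (0.0552), FEBJ library 1 (0.136), FEBJ library 2 (0.122), cynaroside library 1 (0.081) or cynaroside library 2 (0.147), and with DESeq2 (0.0704), as adjusted p.

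The rows that carry the ZNF symbols themselves were read as deposited. Of the 48 genes, 25 had an own row that passed the filter, and that of ZNF726 held no counts. After FEBJ, 8 of the 25 rose and 4 fell, with a median log2 fold change of 0.64, beside 26.0% higher and 24.8% lower among all 12012 rows tested. After cynaroside, 8 rose and 1 fell (median 0.41), beside 24.3% and 21.1%. Between the treatments, 5 were higher after FEBJ and 5 lower (median 0.10), beside 21.5% and 20.4%. The medians of all rows were -0.06, 0.02 and 0.12. As libraries were left out, the fall after cynaroside became 0 (without DMSO library 1, DMSO library 2 or cynaroside library 2; edgeR, with 1 to 2 lower at an unadjusted p under 0.05) or 3 (without any other library). The 5 higher after FEBJ than after cynaroside became 2 or 3 whichever library was left out, and the 5 lower became 3 without FEBJ library 2.

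Own rows that rose after FEBJ were those of ZNF862, ZNF215, ZNF205, ZNF687, ZNF155, ZNF821, ZNF57 and ZNF497. ZNF215, from the imprinted part of chromosome 11, had 32 and 66 own counts in DMSO, 274 and 316 with FEBJ, and 23 and 91 with cynaroside. Its FEBJ libraries stood above the rest, with a log2 fold change of 2.83 ± 0.26 (adjusted p = 2.23e-10). The opposite-strand reading of ZNF215 gave 0.02 ± 0.59 (adjusted p = 0.985) from 144 counts. For ZNF497 the own row rose by 1.22 ± 0.15 after FEBJ (adjusted p = 4.59e-08) and 1.11 ± 0.15 after cynaroside (adjusted p = 5.99e-07), and the opposite reading gave 1.33 ± 0.63 (adjusted p = 0.0535) and -0.90 ± 0.74 (adjusted p = 0.357). The own row of ZNF155 rose by 1.61 ± 0.52 after FEBJ (adjusted p = 0.0105), beside 1.90 in the opposite reading.

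Own rows that fell after FEBJ were those of ZNF217, ZNF358, ZNF354C and ZNF529. ZNF529 had 45 and 81 own counts in DMSO, 19 and 24 with FEBJ, and 72 and 231 with cynaroside. Its own row fell by 1.32 ± 0.35 on the log2 scale after FEBJ (adjusted p = 0.00269) and rose by 1.60 ± 0.30 after cynaroside (adjusted p = 9.77e-05), where the opposite reading gave 0.21 ± 0.37 and 0.41 ± 0.37. The number of falling own rows after FEBJ ranged from 1 to 4 as libraries were left out in turn: it was 1 without DMSO library 1, without DMSO library 2 and without FEBJ library 2, and 2 without FEBJ library 1. In ZNF354C the own row held 18 and 20 counts in DMSO, 2 and 2 with FEBJ, and 0 and 3 with cynaroside. Between the treatments, ZNF205, ZNF821 and ZNF710 were called higher after FEBJ in the opposite reading and lower in their own rows. The log2 differences were 2.04, 1.39 and 0.92 in the opposite reading and -1.41, -1.63 and -1.46 in the own rows. ZNF384, ZNF155 and ZNF473 were called higher, and ZNF432 lower, in both. The 2 readings of 1 gene thus differed in several cases, and they were not tested against each other.

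Silencing by KRAB zinc finger proteins runs through TRIM28, histone methyltransferases, and the NuRD and HUSH complexes, and 32 genes of that machinery were listed. In the opposite-strand reading, 7 were tested, and 3 rose and 2 fell after FEBJ, with a median log2 fold change of 0.07. MBD3, a NuRD subunit, rose by 0.39 ± 0.07 (adjusted p = 1.68e-07) and SUV39H1, a histone methyltransferase, by 0.36 ± 0.10 (adjusted p = 0.000382), while EHMT1, another, fell by 1.17 ± 0.17 (adjusted p = 3.21e-11). After cynaroside, MORC2, which works with the HUSH complex, fell by 0.54 ± 0.16 (adjusted p = 0.0038), and the median of the 7 was -0.12. In the own rows 29 were tested: 2 rose and 12 fell after FEBJ (median -1.24), and 4 rose and 17 fell after cynaroside (median -1.89). Of all own rows tested, 26.0% rose and 24.8% fell after FEBJ, and 24.3% rose and 21.1% fell after cynaroside, with medians of -0.06 and 0.02. In the 1200 own rows of genes with at least 100 opposite counts the medians were -0.22 and -0.50. TASOR and MPHOSPH8, both of the HUSH complex, were the 2 that rose after FEBJ, by 1.95 ± 0.20 and 1.73 ± 0.18 on the log2 scale. The own row of TRIM28 was read at 58.0 and 41.1 CPM in DMSO, 32.2 and 34.0 CPM after FEBJ, and 3.43 and 16.6 CPM after cynaroside. The cynaroside libraries lay far apart, at 5 and 66 counts, though both under all others. The row fell by 2.05 ± 0.36 on the log2 scale after cynaroside (adjusted p = 3.96e-05) and stood at -0.57 ± 0.32 after FEBJ (adjusted p = 0.139).

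Zinc finger genes of the ZSCAN, ZKSCAN, ZBTB and KLF families, read by the same rule and minimum, were 10 in number, and the ZFP family gave none. After FEBJ, 6 rose and 2 fell, with a median log2 fold change of 0.79. Of all genes tested, 32.6% rose and 33.2% fell. The 4 ZBTB genes went another way, with 1 higher, 1 lower and a median of 0.0 after FEBJ. After cynaroside 3 of these 4 were higher, with a median of 1.09. KLF11, a factor induced by TGF-beta, rose by 2.40 ± 0.17 (adjusted p = 7.11e-40) and ZSCAN16 by 1.78 ± 0.21 (adjusted p = 4.05e-16). After cynaroside, 4 of the 10 rose and 1 fell (median 0.37), beside 18.0% higher and 19.3% lower among all genes tested. ZBTB1, a regulator of lymphocyte development, rose by 1.39 ± 0.29 after cynaroside (adjusted p = 1.46e-05). KLF3, a repressor in blood and fat cells, fell by 1.96 ± 0.30 after FEBJ (adjusted p = 7.32e-10). The 10 genes and the ZNF genes were not tested against each other.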

How the data were processed

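The authors deposited raw counts per gene for each of the 6 libraries; per the submitters' processing notes they used CASAVA 1.7, HISAT2, HTSeq 0.12.4 and DESeq2 1.38.0 with hg19. The strand setting and annotation release are not given in the sources used here. Summary rows, 93.9 to 94.5% of all counts, were left out. Reads assigned to no feature made up 87.4 to 88.3% of all counts, and the part of the strand setting in this was not tested. GENCODE release 29 on GRCh38 gave exons for 58261 of 62754 gene rows, and symbols matched 62700. Non-coding rows, pseudogenes included, were summed for the only protein-coding gene opposite to them; the members and lists were chosen with earlier results of these data known.

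The table was fitted with edgeR 4.0.16 in R 4.3.3 (filterByExpr, TMM, quasi-likelihood test, 3 group means, all 6 libraries, 3 residual degrees of freedom), with Benjamini-Hochberg adjustment over the 1841 genes tested, and own rows likewise over 12012. A call is an adjusted p of 0.05 or less. The prior degrees of freedom were 693 and 24.9, so a gene's spread came mostly from the trend over all genes. CPM are counts per 1000000 of the TMM library size; fold changes are ± standard error.

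Named were the 8 largest non-overlapping called rises and falls per comparison, the 8 genes with most counts and those kept of the panel, with further genes named after their values were seen. The scripts were tested on simulated data. Alternatives were RLE, upper-quartile and all-row scaling, other filters, overlaps and minimums, a prior count of 2, a replicate block, left-out libraries and DESeq2 1.42.0; 2 further alternatives, on pseudogene rows and on rows mostly opposite to the gene, were chosen after seeing the data.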

Additional observations from a re-analysis of the deposited data

How the results depend on the processing

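Groups of 2 libraries limit the precision, and leaving out 1 library ended several calls. When a library is left out, its group is assumed to vary like the others. Of 64 calls of named genes, 38 held under each alternative run for them, and of 20 uncalled results 12 did. After FEBJ, falls numbered 2 with a minimum of 300 counts; rows mostly opposite gave 8 rises and 1 fall. Leaving out each library in turn gave 2 to 5 falls. After cynaroside, scaling from all gene rows gave 22 rises and 0 falls (1 lower at an unadjusted p under 0.05), a fold past 1.5 left 4 falls, and rows mostly opposite gave 1 fall. Left-out libraries gave 7 to 12 rises and 5 to 8 falls. Between the treatments, 3 genes were lower after FEBJ with DESeq2, with opposite rows at or above the own row, and with 300 counts; rows mostly opposite left 6 higher, and left-out libraries gave 3 to 7 lower. The scaling from all gene rows turned ZNF205 (0.06), ZNF668 (0.02) and ZNF598 (0.15) after cynaroside and ZNF358 (0.29) after FEBJ, as log2 fold changes. The cause was not tested, except that 300 counts and stricter rows leave fewer genes.

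In own rows, falls after FEBJ were 2 under the replicate block and 1 to 4 with libraries left out. After cynaroside, falls were 3 with RLE, 2 without a filter, 2 with DESeq2, 0 under the replicate block (2 lower at an unadjusted p under 0.05) and 0 to 3 with libraries left out. Between the treatments, 3 were higher without a filter, 3 under the block and 2 to 3 with libraries left out, and 3 to 5 were lower. Same-numbered libraries share only a number: their deviations correlated at 0.021, -0.058 and 0.005. The replicate block gave 24 rises and 4 falls after FEBJ, 12 and 8 after cynaroside, and 22 and 6 between the treatments in the opposite reading.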
